A study of Mus musculus with 12 samples.

Results

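The coagulation cascade and the fibrinolytic system were followed in mouse liver through 36 genes, out of 25676 genes in the deposited expression table. The genes were taken by symbol from a list of clotting, anti-clotting and clot-dissolving factors. The rule uses no measured value, although the list was chosen with earlier results of these data known. They comprise 17 pro-coagulant genes, the thrombin receptor gene *F2r*, 2 enzymes of the vitamin K cycle, 9 anti-coagulant genes, 4 fibrinolytic genes and 3 genes for inhibitors of fibrinolysis. RNA sequencing had been done on whole livers of 12 mice on the C57BL/6 background, aged 3-4 months, each giving 1 library. The 6 knockout mice, labelled Foxa3-Cre YAP1 KO and called KO here, were 3 males and 3 females, and so were the 6 wild-type controls, called WT. *Yap1* encodes a transcriptional co-activator of the Hippo pathway. The labels give no treatment, and do not say whether the WT mice carried Cre or a floxed allele. *Foxa3* is active in endoderm, which forms hepatocytes and bile duct cells, whereas endothelial cells, macrophages and platelets have other origins.

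Clotting runs through a chain of serine proteases that circulate as inactive zymogens. Tissue factor with factor VII, or the contact factors with factors XI, IX and VIII, activate factor X, which with factor V turns prothrombin into thrombin. Thrombin cuts fibrinogen into fibrin, which factor XIII cross-links. Antithrombin, heparin cofactor II, protein Z-dependent inhibitor, tissue factor pathway inhibitor and the protein C system hold the chain in check, and plasmin, made from plasminogen by the tissue-type and urokinase-type activators, dissolves fibrin. Hepatocytes make most of the circulating factors, while von Willebrand factor, factor VIII, thrombomodulin, the protein C receptor and tissue-type plasminogen activator are known chiefly as products of endothelial cells.

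Expression was given in TPM, a share of each library's transcripts corrected for transcript length. Whole reads recovered from steps in the values came to 19652066 to 27827094 per library. *Yap1* itself was 23.0 to 34.9 TPM in WT and 0.994 to 3.11 TPM in KO, so each library matched its genotype label. The libraries differed in how their TPM were spread. Among the 12278 genes tested, which had a mean of at least 0.5 TPM, the median KO minus WT difference was 0.35 on the log2(TPM + 1) scale. After rescaling of each library by the median ratio of its genes to their means, with factors of 0.724 to 0.949 in WT and 1.09 to 1.34 in KO, that median was -0.04. Differences are therefore given on the deposited scale and after rescaling. A gene is said to have risen or fallen where limma gave an adjusted p under 0.05 over all tested genes, with sex as a covariate, and the log2(TPM + 1) scale understates the change of genes with low TPM. The p-values measure the spread between these 12 livers. Because whole tissue was sequenced, fewer cells of a type and less RNA per cell cannot be told apart. Summed over 11 macrophage markers, deposited TPM was 94.7 to 316 TPM in WT and 558 to 1149.7 TPM in KO (123 to 341 in WT and 484 to 897 in KO after rescaling). Over 11 endothelial markers the sum was 76.1 to 119 TPM in WT and 49.0 to 189 TPM in KO (92.8 to 128 in WT and 42.5 to 147 in KO after rescaling), and over 9 hepatocyte markers 96037 to 125774 TPM in WT and 100719 to 133008 TPM in KO (113392 to 137135 in WT and 86785 to 114448 in KO after rescaling). *Alb* was the largest part of the hepatocyte sum, and of the 9 markers 3 rose and 1 fell as deposited, and 1 rose and 3 fell after rescaling, with *Trf* higher (1.56 and 1.09) and *Ttr* lower (-1.10 and -1.57) on both scales. Over 6 biliary markers the sum was 28.0 to 59.0 TPM in WT and 260.1 to 725 TPM in KO, most of it *Spp1* (33.1 to 64.3 in WT and 232 to 592 in KO after rescaling). Of the 5 biliary markers tested, *Spp1*, *Cldn7* and *Sox9* rose and *Epcam* fell on both scales, and *Krt19* was not called.

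Of the 36 genes, 34 passed the filter on low values, and 18 of these rose and 1 fell in KO livers. The background was high, since 50.1% of all tested genes rose and 4.82% fell. After rescaling, 9 of the 34 rose and 8 fell, against 20.9% and 18.7% of all tested genes. The 9 genes that rose on both scales were *Plat*, *Plaur*, *Plau*, *Thbd*, *Pros1*, *Procr*, *Serpina10*, *Vwf* and *Cpb2*. The same 9 were called with any 1 of the 12 libraries left out, in sets that share most of their livers with the full set. The share of all tested genes that kept such a call is not given here. *F11* alone fell on both scales. Over all tested genes, 20.9% rose and 4.81% fell on both scales. The median difference of the 34 genes was 0.41 as deposited and -0.01 after rescaling, beside 0.35 and -0.04 over all tested genes. *Plat* and *Plaur* averaged under 0.5 TPM in WT and passed the filter only through their KO values; among the other 32 genes, 16 rose and 1 fell as deposited, 7 rose and 8 fell after rescaling, and the medians were 0.39 and -0.06. On the deposited scale, all 6 KO livers lay above all 6 WT livers for 11 of the 34 genes and below them for 1, against 28.7% and 1.88% of tested genes. After rescaling these counts were 3 and 5, against 10.8% and 8.19%. Without *Plat* and *Plaur* they were 9 and 1 of 32 as deposited, and 1, which was *Pros1*, and 5 after rescaling.

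The authors' deposited table holds their own KO against WT comparison, whose median log2 fold change over the tested genes was -0.01. In the authors' deposited table, 6 of the 34 genes had a positive log2 fold change with an FDR p under 0.05 and 5 a negative one, against 18.3% and 12.3% of tested genes; *Plat* and *Plaur* are among the 6. Of the 9 genes that rose on both scales here, all 9 were positive in the authors' deposited table and 6 had an FDR p under 0.05 there; *Procr* was listed at 0.1, *Serpina10* at 0.3 and *Cpb2* at 0.4. Of the 9 that rose only as deposited, the authors' deposited table gave 6 a negative log2 fold change and none an FDR p under 0.05, with *Fga* at -0.21, *Fgb* at -0.18, *Fgg* at -0.24 and *F12* at -0.16. All 8 that fell after rescaling were negative in the authors' deposited table, 4 of them with an FDR p under 0.05. The authors' comparison was deposited with the values of these same 12 livers. The subsets above were picked by their calls in those livers, so these counts are not an independent check. The matching shares among all tested genes with such calls are not given here.

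**Figure D1:**
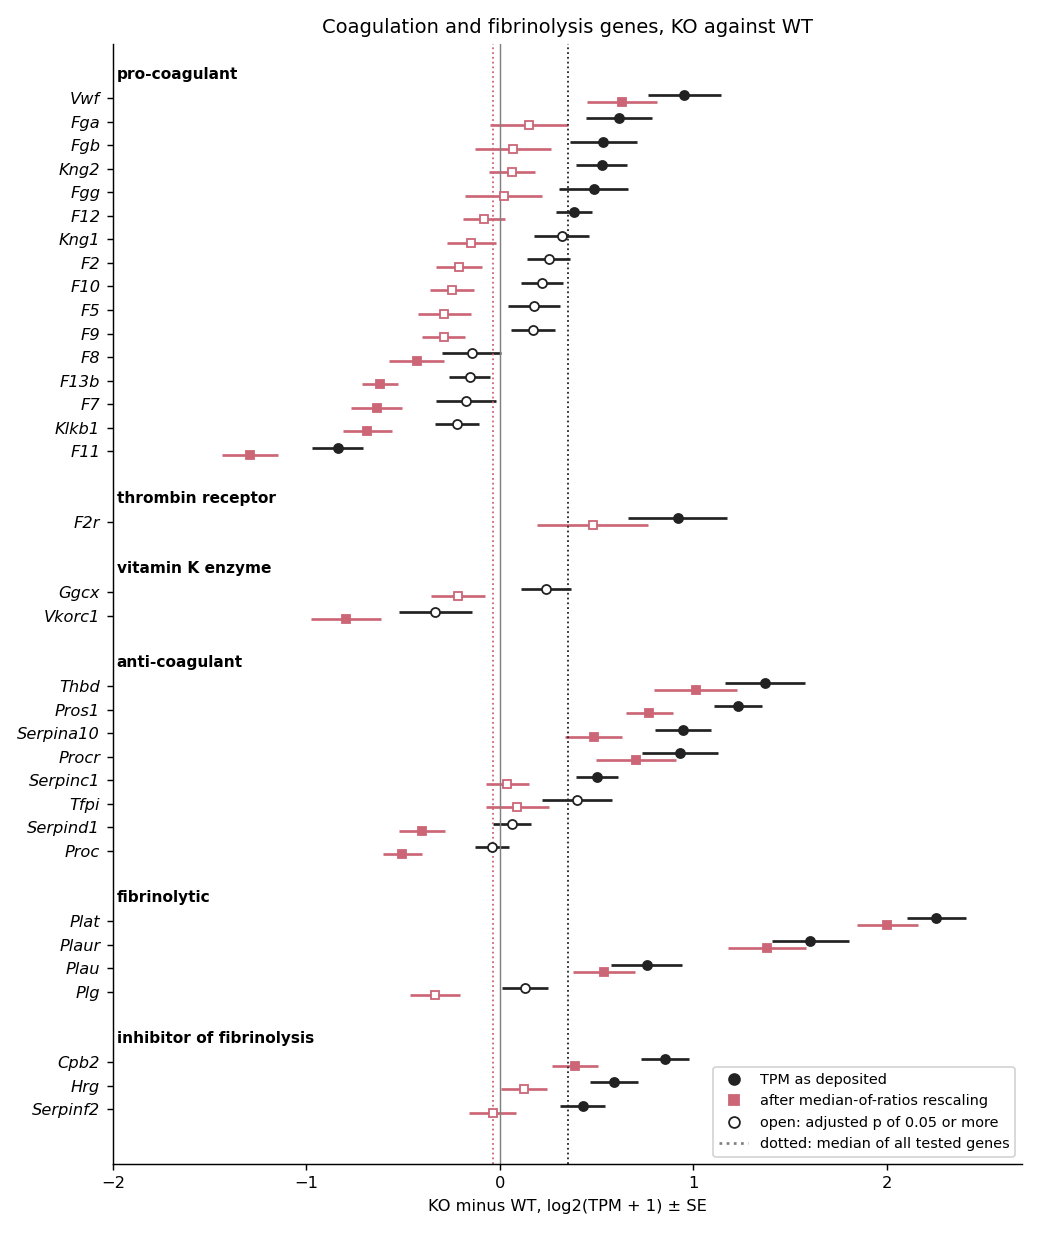
KO minus WT difference in log2(TPM + 1) ± SE for the 34 tested genes, grouped by role, from 6 KO and 6 WT livers with sex as a covariate. Circles are TPM as deposited and squares are after rescaling; filled symbols passed the test, and dotted lines mark the median of all tested genes at 0.35 and -0.04. Plat, Plaur and Thbd lie farthest right and F11 farthest left on both scales.

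By role, counts are given on the deposited scale and after rescaling, to be read against the 50.1% of all tested genes that rose and 4.82% that fell as deposited, the 20.9% and 18.7% after rescaling, and their medians of 0.35 and -0.04. Among 16 tested pro-coagulant genes, 6 rose and 1 fell as deposited, and 1 rose and 5 fell after rescaling. Their median difference was 0.24 as deposited and -0.23 after rescaling. Of 8 tested anti-coagulant genes, 5 rose as deposited, and 4 rose and 2 fell after rescaling, with medians of 0.72 and 0.29. Of the 4 fibrinolytic genes, *Plat* and *Plaur* entered through their KO values alone; of the other two, *Plau* rose on both scales and *Plg* on neither. All 3 genes for inhibitors of fibrinolysis rose as deposited and 1 of them rose after rescaling, with medians of 0.59 and 0.13. These counts describe the list, and the difference between roles was not tested.

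Fibrinogen, the precursor of fibrin, is built from the Aα, Bβ and γ chains encoded by *Fga*, *Fgb* and *Fgg*. The 3 genes lie side by side on mouse chromosome 3, at chr3:83026076-83033627, chr3:83040141-83049863 and chr3:83007724-83015049 (GRCm38). Their promoter windows are shown because the 3 chains moved together across the livers. Each window runs from 250 bases before to 50 bases after the annotated start in RefSeq (GRCm38.p6), 5′ to 3′ on the gene's strand: chr3:83025903-83026202, plus strand, for *Fga*; chr3:83049814-83050113, minus strand, for *Fgb*; and chr3:83007474-83007773, plus strand, for *Fgg*. Capitals mark every match, on either strand, to motifs of HNF1 (GTTAAT), STAT (TTCNNNGAA), TEAD (GGAATG), C/EBP (TTGCGCAA) or HNF4 (CAAAGTCCA).
Fga: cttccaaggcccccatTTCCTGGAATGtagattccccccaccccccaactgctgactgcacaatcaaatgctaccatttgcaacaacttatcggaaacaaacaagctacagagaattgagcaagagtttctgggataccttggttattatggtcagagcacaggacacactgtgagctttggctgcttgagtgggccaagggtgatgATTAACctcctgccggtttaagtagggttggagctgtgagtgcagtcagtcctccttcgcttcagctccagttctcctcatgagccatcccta
Fgb: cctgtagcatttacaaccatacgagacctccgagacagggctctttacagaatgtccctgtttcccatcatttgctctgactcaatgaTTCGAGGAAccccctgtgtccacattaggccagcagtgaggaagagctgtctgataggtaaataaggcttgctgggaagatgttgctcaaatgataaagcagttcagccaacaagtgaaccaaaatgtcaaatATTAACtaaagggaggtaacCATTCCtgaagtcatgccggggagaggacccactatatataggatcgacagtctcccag
Fgg: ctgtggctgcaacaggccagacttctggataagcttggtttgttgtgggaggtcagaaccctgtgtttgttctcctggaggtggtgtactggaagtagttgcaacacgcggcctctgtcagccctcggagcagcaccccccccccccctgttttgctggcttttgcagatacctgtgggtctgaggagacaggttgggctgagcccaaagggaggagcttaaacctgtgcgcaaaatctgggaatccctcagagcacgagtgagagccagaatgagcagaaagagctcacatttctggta
The *Fga* and *Fgb* windows each held the HNF1, STAT and TEAD motifs, and in *Fga* the STAT and TEAD matches overlap. The *Fgg* window held none of the 5. Of 30 promoter windows found for 28 of the 36 genes, 13.3% held the HNF1 motif, 13.3% the STAT motif and 23.3% the TEAD motif, against 7.1%, 8.3% and 14.7% of 32851 mouse promoters in the same table. The C/EBP palindrome was in 3.33% of them (*Serpina5* alone) against 0.183%, and the HNF4 motif in 0% against 0.475%. A match is a run of letters and does not show binding.

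*Fga*, the most abundant of the 36 genes together with *Fgg*, was at 3267, 4619.9 and 2112 TPM in the WT males, 1925, 2099 and 2479 in the WT females, 4402, 5848 and 4484 in the KO males, and 3579, 2931 and 3424 in the KO females. The groups overlapped, since WT male replicate 2 exceeded 5 of the 6 KO livers. *Fgb* was 1364 to 2847 TPM in WT and 1817 to 4082 TPM in KO, and *Fgg* 2170.4 to 4360.1 TPM in WT and 2826 to 5969 TPM in KO. As deposited, KO male replicate 2 was the highest of all 12 libraries for each chain, and WT female replicate 1 the lowest. After rescaling the highest was WT male replicate 2, at 6377 for *Fga*, 3930 for *Fgb* and 6019 for *Fgg*. KO male replicate 2 was then at 5074, 3541 and 5179, and WT female replicate 1 was still the lowest. As deposited, *Fga* rose by 0.62 (SE 0.170, adjusted p = 0.00791), *Fgb* by 0.53 (SE 0.173, adjusted p = 0.0188) and *Fgg* by 0.48 (SE 0.177, adjusted p = 0.0331). After rescaling the differences were 0.15 (adjusted p = 0.584), 0.07 (adjusted p = 0.807) and 0.02 (adjusted p = 0.954), and none was called. The *Fgg* call was also lost without WT male replicate 3 (adjusted p = 0.0712), WT female replicate 1 (0.0702) or 2 (0.0558), KO male replicate 2 (0.0752) or KO female replicate 1 (0.0711), without the 20 most abundant genes (0.0713), and with no filter on low values (0.0678). Within a library, the ratio of *Fgb* to *Fga* was 0.616 to 0.840 in WT (median 0.705) and 0.620 to 0.731 in KO (median 0.671), so the 3 chains kept overlapping proportions, and that of *Fgg* to *Fga* was 0.944 to 1.25 in WT (median 1.100) and 0.946 to 1.12 in KO (median 0.977).

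**Figure D2:**
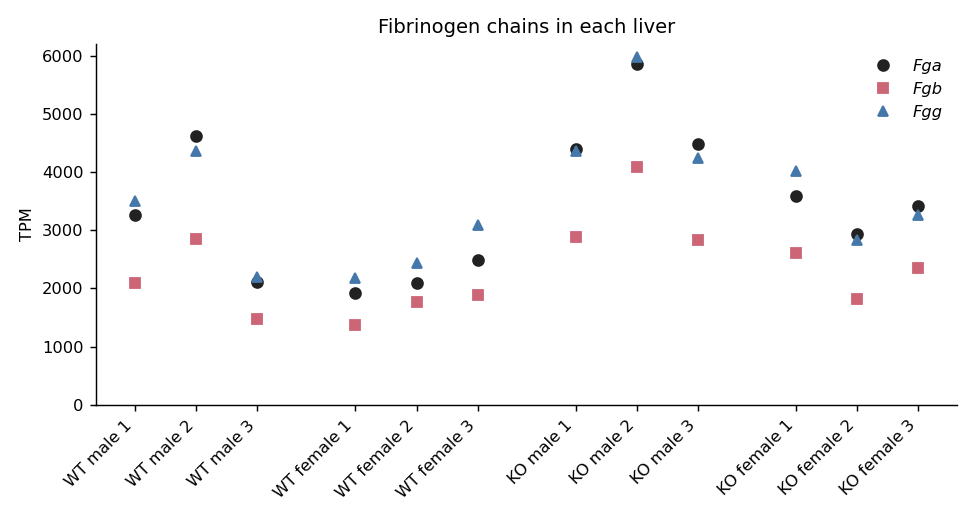
TPM of Fga, Fgb and Fgg in each of the 12 livers, as deposited. The 3 chains rise and fall together from library to library, with KO male replicate 2 highest and WT female replicate 1 lowest.

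*F11*, the zymogen of factor XI, which amplifies thrombin formation, was the only gene of the list that fell on both scales. It was at 62.8, 65.9 and 96.3 TPM in the WT males, 51.3, 69.1 and 71.7 in the WT females, 38.0, 38.5 and 39.0 in the KO males, and 31.2, 37.4 and 43.7 in the KO females. Every KO liver was below every WT liver, with 38.0 ± 4.01 TPM (mean ± SD, n = 6) in KO and 69.5 ± 14.9 TPM in WT. The difference was -0.84 (SE 0.132, adjusted p = 0.000149), and -1.29 (adjusted p = 1.48e-05) after rescaling. In the authors' deposited table the log2 fold change of *F11* was -1.43. The gene lies at chr8:45241174-45262031. Its promoter window (chr8:45261982-45262281, minus strand) is shown as that of the only gene that fell on both scales, and held none of the 5 motifs.
F11: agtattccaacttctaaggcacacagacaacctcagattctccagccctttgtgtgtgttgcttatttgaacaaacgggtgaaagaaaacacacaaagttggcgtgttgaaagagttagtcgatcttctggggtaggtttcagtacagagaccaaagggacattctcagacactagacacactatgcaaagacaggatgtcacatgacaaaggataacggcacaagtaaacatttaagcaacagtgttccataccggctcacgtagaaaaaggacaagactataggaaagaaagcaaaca

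None of the other contact-pathway genes was called lower on the deposited scale with all libraries and genes. *Klkb1*, which encodes plasma prekallikrein and is the neighbour of *F11* at chr8:45266689-45294859, was 109 to 172 TPM in WT and 105 to 147 TPM in KO, a difference of -0.22 (SE 0.113, adjusted p = 0.111) that became -0.68 (adjusted p = 0.000879) after rescaling. Without WT male replicate 1 the deposited difference of *Klkb1* also passed the test (-0.29, adjusted p = 0.0485), as it did without the 20 most abundant genes (-0.30, adjusted p = 0.0414). Of its 50-base sequences, 42.7% are shared with the overlapping gene model *Gm45753*, so its reads could have been divided between them, although *Gm45753* did not exceed 0.947 TPM. *F12*, the zymogen that starts the contact pathway, was 418 to 544 TPM in WT and 549.6 to 667 TPM in KO, with no overlap, and rose by 0.38 (SE 0.0934, adjusted p = 0.00366), while after rescaling its difference was of opposite sign, -0.08 (adjusted p = 0.575). The kininogen genes *Kng1* and *Kng2*, which encode the carriers of prekallikrein and precursors of bradykinin, differed by 0.32 (SE 0.140, adjusted p = 0.0694) and 0.53 (SE 0.133, adjusted p = 0.00464), and by -0.15 (adjusted p = 0.392) and 0.06 (adjusted p = 0.709) after rescaling, so that of *Kng1* changed sign. Without KO female replicate 2 the deposited difference of *Kng1* passed the test (0.41, adjusted p = 0.0156). They share 17.2% and 19.4% of their 50-base sequences with each other, so reads could have been divided between them. The ratio of *Kng2* to *Kng1* within a library does not depend on the scaling and was 0.123 to 0.145 in WT (median 0.135) and 0.147 to 0.159 in KO (median 0.154), with no overlap.

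Of the genes for the vitamin K-dependent zymogens, none passed the test on the deposited scale over both sexes. *F2*, for prothrombin, was 1442 to 1988 TPM in WT and 1708 to 2179 TPM in KO, *F9* 102 to 136 TPM in WT and 113 to 168 TPM in KO and *F10* 265 to 428 TPM in WT and 354 to 411 TPM in KO, and the genotypes overlapped for each. Their differences were 0.25 (SE 0.111, adjusted p = 0.0684), 0.17 (SE 0.113, adjusted p = 0.215) and 0.22 (SE 0.107, adjusted p = 0.1002), and all 3 turned negative after rescaling, at -0.21 (adjusted p = 0.171), -0.29 (adjusted p = 0.0530) and -0.25 (adjusted p = 0.0984). *F2* passed the deposited test without WT female replicate 3 (0.30, adjusted p = 0.0409) or KO female replicate 1 (0.31, adjusted p = 0.0332), and *F10* without WT female replicate 3 (0.28, adjusted p = 0.0314). *F7*, the partner of tissue factor, was 90.5 to 163 TPM in WT and 88.8 to 133 TPM in KO, and its difference was -0.18 (SE 0.153, adjusted p = 0.347) as deposited and -0.64 (adjusted p = 0.00183) after rescaling, a fall on that scale only. *F7* and *F10* are neighbours on chromosome 8, at chr8:13026034-13035809 and chr8:13037308-13056676.

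The cofactor genes *F5* and *F8* differed by 0.17 (SE 0.134, adjusted p = 0.282) and -0.15 (SE 0.152, adjusted p = 0.433). After rescaling they were at -0.29 (adjusted p = 0.117) and -0.43 (adjusted p = 0.0294), so *F8* fell on that scale, while *F5* changed sign and was not called. *F8* was low, at 1.20 to 1.91 TPM in WT and 0.816 to 2.06 TPM in KO. *Vwf*, which encodes the carrier of factor VIII and the platelet adhesion protein, was at 1.76, 1.38 and 1.28 TPM in the WT males, 1.68, 0.607 and 1.18 in the WT females, 2.78, 1.93 and 4.96 in the KO males, and 4.21, 3.00 and 4.35 in the KO females. All KO livers were above all WT livers as deposited, and the rise was 0.95 (SE 0.189, adjusted p = 0.000898), or 0.63 (adjusted p = 0.0143) after rescaling. Endothelial cells and megakaryocytes make this protein. Of 11 endothelial markers 1 rose and 1 fell as deposited, and 0 rose and 2 fell after rescaling. Of 7 megakaryocyte and platelet markers 3 were tested and 1 rose on both scales, *Pf4* (0.547 to 2.22 TPM in WT and 2.46 to 10.7 TPM in KO), while *Itga2b* was 0.637 to 2.003 TPM in WT and 0.866 to 2.08 TPM in KO and the summed TPM of the 7 was 2.33 to 6.23 TPM in WT and 5.08 to 15.0 TPM in KO. After rescaling the sum of the 7 was 2.84 to 6.71 in WT and 3.79 to 11.7 in KO. Without *Pf4* the sum was 1.68 to 4.01 TPM in WT and 2.01 to 4.26 TPM in KO (2.05 to 4.96 in WT and 1.85 to 3.33 in KO after rescaling). Their part in the result was not tested.

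Factor XIII cross-links fibrin and is made of a catalytic A subunit (*F13a1*) and a carrier B subunit (*F13b*). *F13a1* did not reach the filter and was not tested. It had 2, 5 and 5 reads in the WT males, 0, 0 and 0 in the WT females, 24, 17 and 41 in the KO males and 37, 12 and 8 in the KO females, so every KO library had more than every WT library. A library with 0 reads allows up to 3 for counting error alone. Counts this low carry a large counting error, and in the authors' deposited table its log2 fold change was 3.09. Macrophages and megakaryocytes are known sources of the A subunit, and all 11 macrophage markers rose as deposited and 10 of them after rescaling, with *Adgre1* at 1.99 to 6.14 TPM in WT and 10.2 to 23.3 TPM in KO; their part in the reads of *F13a1* was not tested. *F13b*, a hepatocyte product, was 132 to 199 TPM in WT and 132 to 157 TPM in KO, a difference of -0.16 (SE 0.106, adjusted p = 0.226), and fell after rescaling by 0.62 (adjusted p = 0.000198).

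The vitamin K cycle supplies the γ-carboxylation that prothrombin, factors VII, IX and X and proteins C and S need. *Ggcx*, the carboxylase, differed by 0.24 (SE 0.129, adjusted p = 0.130), turning to -0.22 (adjusted p = 0.238) after rescaling. *Vkorc1*, the reductase blocked by warfarin, was 129 to 336 TPM in WT and 123 to 244 TPM in KO, and its difference was -0.33 (SE 0.188, adjusted p = 0.146), or -0.80 (adjusted p = 0.00357) after rescaling. The deposited difference of *Vkorc1* passed the test without WT male replicate 2 (-0.47, adjusted p = 0.0261) or KO male replicate 2 (-0.46, adjusted p = 0.0414). Of the 50-base sequences of *Vkorc1*, 44.7% are shared with the overlapping gene model *Gm21974*, which did not exceed 0.641 TPM.

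Among the anti-coagulant genes, *Pros1*, *Thbd*, *Procr* and *Serpina10* rose on both scales. *Pros1*, for protein S, the cofactor of activated protein C, was at 26.6, 38.5 and 34.1 TPM in the WT males, 32.4, 34.4 and 42.6 in the WT females, 86.5, 89.7 and 94.0 in the KO males, and 84.8, 68.3 and 71.7 in the KO females. The KO livers stood apart from the WT livers on both scales, and the rise was 1.23 (SE 0.124, adjusted p = 3.34e-06), or 0.77 (adjusted p = 0.000245) after rescaling. *Proc*, for protein C itself, was 388 to 524 TPM in WT and 414 to 489 TPM in KO, with a difference of -0.04 (SE 0.0878, adjusted p = 0.721), and fell after rescaling, at -0.50 (adjusted p = 0.00143). Protein C and protein S act as partners, and the ratio of *Proc* to *Pros1* within a library was 10.8 to 15.2 in WT (median 13.7) and 4.67 to 7.16 in KO (median 4.92), with no overlap.

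*Thbd*, for thrombomodulin, the receptor that turns thrombin toward protein C, was at 2.18, 2.58 and 1.15 TPM in the WT males, 2.16, 1.70 and 1.14 in the WT females, 5.97, 2.93 and 7.64 in the KO males, and 7.20, 6.71 and 7.87 in the KO females. As deposited, the lowest KO value, that of KO male replicate 2, was close to the highest WT value. After rescaling the genotypes overlapped, at 1.25 to 3.56 in WT and 2.55 to 6.73 in KO. The rise of *Thbd* was 1.37 (SE 0.205, adjusted p = 9.89e-05), or 1.01 (adjusted p = 0.00231) after rescaling. *Procr*, for the endothelial protein C receptor, was low at 0.102 to 1.60 TPM in WT and 1.62 to 3.05 TPM in KO, resting on 2 to 28 reads per WT library and 23 to 56 per KO library. It rose by 0.93 (SE 0.195, adjusted p = 0.00135), or 0.70 (adjusted p = 0.0165) after rescaling. On the rescaled values the genotypes overlapped for *Procr*, at 0.141 to 1.95 in WT and 1.23 to 2.38 in KO. Both are known chiefly from endothelium. Of the 11 endothelial markers, *Cdh5* was 5.14 to 8.88 TPM in WT and 6.19 to 21.6 TPM in KO and rose as deposited by 0.88 (SE 0.246, adjusted p = 0.00822), with 0.46 (adjusted p = 0.126) after rescaling. *Kdr* was 6.66 to 9.72 TPM in WT and 2.28 to 10.6 TPM in KO, and its difference was -0.62 (SE 0.242, adjusted p = 0.0441), or -1.02 (adjusted p = 0.00306) after rescaling, a fall on both scales. *Lyve1* fell after rescaling only, at -0.46 (adjusted p = 0.0475), and the other 8 were called on neither scale. Their part in the results was not tested.

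*Serpina10*, for the protein Z-dependent inhibitor of factor X, was at 94.9, 125 and 84.9 TPM in the WT males, 97.4, 115 and 102 in the WT females, 196, 297 and 213 in the KO males, and 191, 151 and 168 in the KO females. All KO livers were above all WT livers as deposited, and the rise was 0.95 (SE 0.145, adjusted p = 0.000123), or 0.48 (adjusted p = 0.0206) after rescaling. *Serpinc1*, for antithrombin, the main inhibitor of thrombin and factor X, was 622 to 955 TPM in WT and 976 to 1121 TPM in KO, and rose by 0.50 (SE 0.108, adjusted p = 0.00153) as deposited, with 0.04 (adjusted p = 0.814) after rescaling. It shares 2942 exonic bases with *Zbtb37* on the opposite strand, which did not exceed 3.08 TPM, and whether counting used strand is not given in the sources used here. *Serpind1*, for heparin cofactor II, differed by 0.06 (SE 0.0978, adjusted p = 0.6003) and fell after rescaling, at -0.40 (adjusted p = 0.0169). *Tfpi*, the inhibitor of the tissue factor complex, was 1.37 to 1.93 TPM in WT and 1.09 to 5.26 TPM in KO, a difference of 0.40 (SE 0.181, adjusted p = 0.0776), or 0.09 (adjusted p = 0.694) after rescaling. Its deposited difference was 0.24 without KO female replicate 1, the library with 5.26 TPM, and passed the test without KO male replicate 2 (0.52, adjusted p = 0.0217) or KO female replicate 2 (0.47, adjusted p = 0.0444). *Serpina5*, for the protein C inhibitor, did not reach the filter. It had 13, 21 and 3 reads in the WT males, 1 in KO male replicate 1 and 0 in the other 8 libraries.

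The ratio of *F2* to *Serpinc1*, prothrombin against the main inhibitor of thrombin, was 2.08 to 2.45 in WT (median 2.25) and 1.75 to 1.98 in KO (median 1.88), with no overlap. This and the other ratios pair genes by their known biochemistry, were chosen after the values had been seen, and were not tested. Summed over the role, deposited TPM of the anti-coagulant genes was 1578 to 2120.0 TPM in WT and 2122 to 2354 TPM in KO, without overlap, while after rescaling it was 1862 to 2356 in WT and 1655 to 2037 in KO, with overlap and a median that was lower in KO (1930.0) than in WT (1968). The pro-coagulant genes summed to 10001 to 16090.1 TPM in WT and 12799 to 21731 TPM in KO, of which the fibrinogen chains made up 5459 to 11827 TPM in WT and 7574 to 15899 TPM in KO. After rescaling these sums were 11202 to 22211 in WT and 11422 to 18854 in KO, and 5877 to 16326 in WT and 6759.6 to 13794 in KO.

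**Figure D3:**
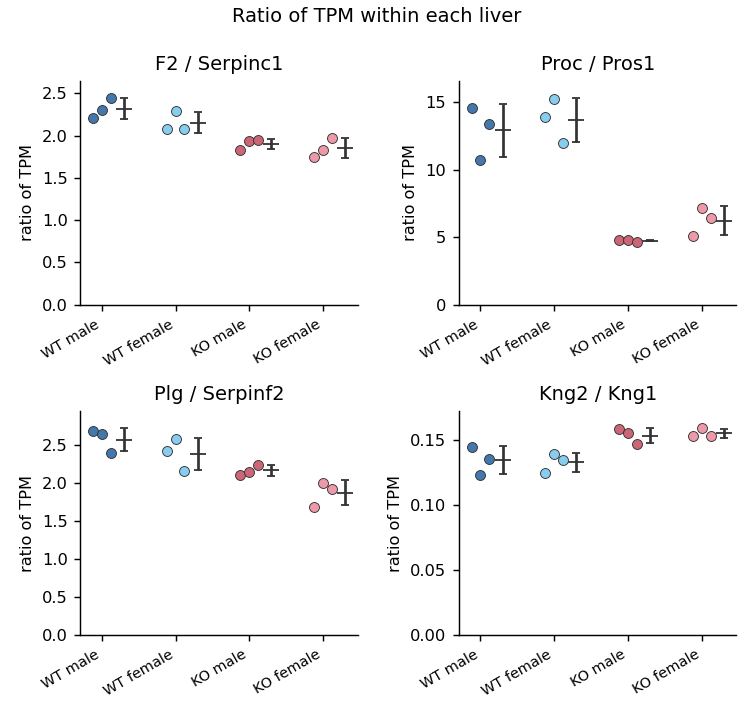
Ratio of TPM within each liver for 4 pairs of genes, by group; points are livers, and bars beside them show the mean ± SD (n = 3). Proc / Pros1, F2 / Serpinc1 and Kng2 / Kng1 do not overlap between WT and KO, and Plg / Serpinf2 does.

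The plasminogen activators and the urokinase receptor rose, while plasminogen did not pass the test. *Plat*, for tissue-type plasminogen activator, was at 0.506, 0 and 0.303 TPM in the WT males, 0.576, 0.486 and 0.619 in the WT females, 5.77, 2.88 and 4.999 in the KO males, and 7.10, 7.76 and 6.86 in the KO females. All KO livers were above all WT livers on both scales, and the ratio of the genotype means was 14.2. It rested on 0 to 22 reads per WT library and 68 to 206 per KO library. The rise was 2.26 (SE 0.151), or 2.002 after rescaling. *Plat* reached the filter through its KO values. With no filter, limma gave it an adjusted p of 7.45e-07 as deposited, and no such fit was made after rescaling. Of 6 biliary markers, *Spp1*, *Cldn7* and *Sox9* rose on both scales, *Epcam* fell on both (-0.35 and -0.53), *Krt19* was not called and *Krt7* was 0.0380 to 0.513 TPM in WT and 0.0748 to 0.628 TPM in KO and untested. Of 11 endothelial markers, *Cdh5* alone rose, as deposited only. The part of these cells in the result was not tested. *Plaur*, for the urokinase receptor, was at 0.716, 0 and 0.0801 TPM in the WT males, 0.965, 0.346 and 0.186 in the WT females, 3.29, 1.79 and 3.48 in the KO males, and 4.60, 3.80 and 2.16 in the KO females. The KO livers again stood above the WT livers on both scales, from 0 to 19 reads per WT library and 32 to 101 per KO library. The rise of *Plaur* was 1.60 (SE 0.199), or 1.38 after rescaling. *Plaur* too reached the filter through its KO values, and with no filter limma gave it an adjusted p of 7.8e-05 as deposited.

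*Plau*, for urokinase-type plasminogen activator, was at 0.462, 0.138 and 0.226 TPM in the WT males, 1.11, 1.20 and 0.900 in the WT females, 1.03, 1.40 and 1.99 in the KO males, and 3.79, 1.095 and 1.86 in the KO females. The genotypes overlapped through KO male replicate 1 and KO female replicate 2, which were below WT female replicates 1 and 2, and in each sex every KO liver but KO female replicate 2 was above every WT liver of that sex. The rise of *Plau* was 0.76 (SE 0.185, adjusted p = 0.00372), or 0.54 (adjusted p = 0.0180) after rescaling. Macrophages and neutrophils express *Plau* and *Plaur*; 11 of 11 macrophage markers and 2 of 4 tested neutrophil markers rose as deposited, and 10 and 0 after rescaling. The 6 neutrophil markers summed to 0 to 18.4 TPM in WT and 9.03 to 43.2 TPM in KO (0 to 25.4 in WT and 6.73 to 36.9 in KO after rescaling). *Ly6g* was at 0 in all 6 WT libraries and at most 0.199 TPM in KO. Their part in these results was not tested. *Plg*, for plasminogen, a hepatocyte product, was 1485 to 2017 TPM in WT and 1506 to 2151 TPM in KO, with a difference of 0.13 (SE 0.121, adjusted p = 0.382) that turned to -0.34 (adjusted p = 0.0522) after rescaling.

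**Figure D4:**
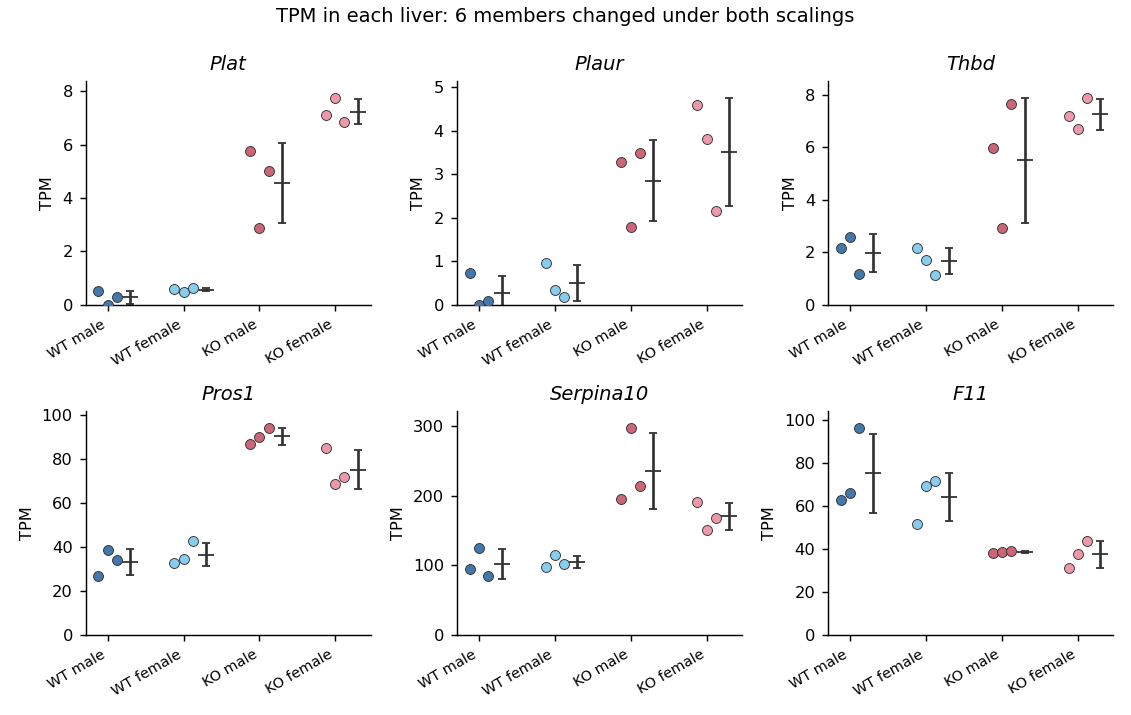
TPM as deposited in each liver for Plat, Plaur, Thbd, Pros1, Serpina10 and F11, by group; points are livers, and bars beside them show the mean ± SD (n = 3). All 6 KO livers lie above all 6 WT livers for the first 5 genes and below them for F11.

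All 3 genes for inhibitors of fibrinolysis rose as deposited. *Cpb2*, for the carboxypeptidase that trims fibrin and slows plasmin formation, was at 388, 388 and 347 TPM in the WT males, 353, 356 and 437 in the WT females, 731, 868 and 756 in the KO males, and 725, 529 and 546 in the KO females. All KO livers lay above all WT livers as deposited but not after rescaling, and the rise was 0.85 (SE 0.122, adjusted p = 6.65e-05), or 0.39 (adjusted p = 0.0189) after rescaling. *Hrg*, for histidine-rich glycoprotein, which binds plasminogen, was 742 to 1032 TPM in WT and 1080.5 to 1447 TPM in KO, with no overlap, and rose by 0.59 (SE 0.124, adjusted p = 0.00132), with 0.13 (adjusted p = 0.424) after rescaling. *Serpinf2*, for α2-antiplasmin, the main inhibitor of plasmin, was 565 to 934 TPM in WT and 843 to 966 TPM in KO, and rose by 0.43 (SE 0.117, adjusted p = 0.00724), while after rescaling the difference was -0.04 (adjusted p = 0.834), of opposite sign. The ratio of *Plg* to *Serpinf2* within a library was 2.16 to 2.68 in WT (median 2.50) and 1.68 to 2.24 in KO (median 2.05), and the genotypes overlapped. Summed TPM of the 3 inhibitor genes was 1696 to 2241 TPM in WT and 2465 to 3244 TPM in KO, and after rescaling 2055 to 2502 in WT and 2128 to 2814 in KO.

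Within males, 18 of the 34 genes rose and 1 fell, against 43.3% and 2.81% of tested genes. Within females, 9 rose and 3 fell, against 29.1% and 4.68%. After rescaling, 5 rose and 6 fell in males (13.9% and 10.2% of tested genes), and 6 rose and 6 fell in females (15.2% and 10.9%). On both scales, 5 rose and 1 fell in males (13.9% and 2.81% of tested genes), namely *Pros1*, *Serpina10*, *Plat*, *Plau*, *Plaur* and, lower, *F11*. In females 6 rose and 3 fell on both scales (15.2% and 4.68%): *Vwf*, *F2r*, *Pros1*, *Thbd*, *Plat* and *Plaur* were higher, and *F7*, *F11* and *F13b* were lower. *Plat* and *Plaur*, which reached the filter through their KO values, are in these counts. Without them, 16 of 32 genes rose as deposited and 3 on both scales in males, and 7 and 4 in females, while the falls were the same in number. With no filter, *Plat* (adjusted p = 6.58e-05 in males and 3.41e-05 in females) and *Plaur* (0.00239 and 0.00322) passed the test as deposited. The fit with no filter was not made after rescaling, so the rescaled calls of *Plat* and *Plaur* rest on the filtered genes. *Plat* rose by 2.11 in males and 2.40 in females, *Pros1* by 1.43 and 1.02, and *F11* differed by -0.92 and -0.76. After rescaling these differences were 1.86 and 2.15 for *Plat*, 0.87 and 0.68 for *Pros1*, and -1.49 and -1.10 for *F11*. The difference of *F13b* in females was -0.38 (SE 0.126, adjusted p = 0.0359), or -0.73 (adjusted p = 0.00164) after rescaling. As deposited it lost its call without WT female replicate 2 (adjusted p = 0.0599) or 3 (0.141), or KO female replicate 1 (0.0897), 2 (0.0625) or 3 (0.0955), and in a fit with no trend (0.0512). A gene called in one sex and not in the other is not shown to differ between the sexes, and the test of that difference follows.

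The genotype difference depended on sex for 1 of the 34 genes, against 0.912% of tested genes. This was *F2r*, for the thrombin receptor PAR-1, which was at 15.1, 23.3 and 19.6 TPM in the WT males, 4.48, 5.77 and 5.92 in the WT females, 22.2, 16.0 and 25.8 in the KO males, and 21.2, 20.1 and 18.0 in the KO females. WT females were below all other livers, and the other 3 groups overlapped. The KO minus WT difference of *F2r* was 1.71 (SE 0.198, adjusted p = 4.03e-05) in females and 0.13 (SE 0.198, adjusted p = 0.607) in males, and the male minus female interaction was -1.58 (SE 0.280, adjusted p = 0.0160). After rescaling the interaction was -1.81 (adjusted p = 0.00704), and the difference in males was -0.42 (adjusted p = 0.154), of opposite sign. Without WT female replicate 1 the interaction was -1.47 with an adjusted p of 0.0578. Over both sexes *F2r* rose by 0.92 (SE 0.255, adjusted p = 0.00816) as deposited and was at 0.48 (adjusted p = 0.204) after rescaling. Stellate cells and endothelial cells express this receptor; 5 of 8 stellate and fibroblast markers rose as deposited, and 3 rose and *Lrat* fell (-0.91 (adjusted p = 0.00334)) after rescaling. The 8 summed to 63.0 to 171 TPM in WT and 153 to 380.1 TPM in KO (77.9 to 186 in WT and 133 to 297 in KO after rescaling), and their part in the result was not tested.

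Between the sexes in WT livers, *F2r* was higher in males by 1.66 (SE 0.198, adjusted p = 0.000233), against 1.14% of tested genes higher in males, and 3 genes were higher in females, against 4.6% of tested genes. *F7* was at 94.9, 90.5 and 106 TPM in the WT males, 163, 162 and 159.8 in the WT females, 108, 133 and 108 in the KO males, and 119.8, 88.8 and 112 in the KO females. The WT females were above all other livers, and the male minus female difference in WT was -0.73 (SE 0.143, adjusted p = 0.0107). *Kng1* was at 1045 ± 41.8 TPM (mean ± SD, n = 3) in WT males and 1573 ± 2.77 TPM in WT females, a difference of -0.59 (SE 0.132, adjusted p = 0.0228), and *Kng2* at 140.3 ± 8.63 and 209 ± 11.1 TPM, a difference of -0.57 (SE 0.127, adjusted p = 0.0211). After rescaling, the difference of *F2r* was 1.89 (adjusted p = 0.000104), and those of *F7*, *Kng1* and *Kng2* were -0.50 (adjusted p = 0.0683), -0.36 (adjusted p = 0.184) and -0.35 (adjusted p = 0.165). Leaving out any 1 WT library other than WT male replicate 3 ended the deposited calls of *Kng1* (adjusted p = 0.0591 to 0.0863) and *Kng2* (0.0528 to 0.0975), as did a covariate for the 2 animals of an earlier number series in the titles (0.0615 and 0.0581). Between the sexes in KO livers limma called 0 of the 34 genes (0.0814% of tested genes in either direction), and after rescaling it also called 0. As deposited, 5 of the 34 had an unadjusted p under 0.05, a larger share than the 5.33% of all tested genes. For *F2r* that difference was 0.08 (SE 0.198, adjusted p = 0.948). The interactions of *F7*, *Kng1*, *Kng2* and *Hrg* were 0.86 (SE 0.202, adjusted p = 0.0918), 0.76 (SE 0.187, adjusted p = 0.110), 0.73 (SE 0.179, adjusted p = 0.112) and 0.59 (SE 0.189, adjusted p = 0.322), and none was called.

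**Figure D5:**
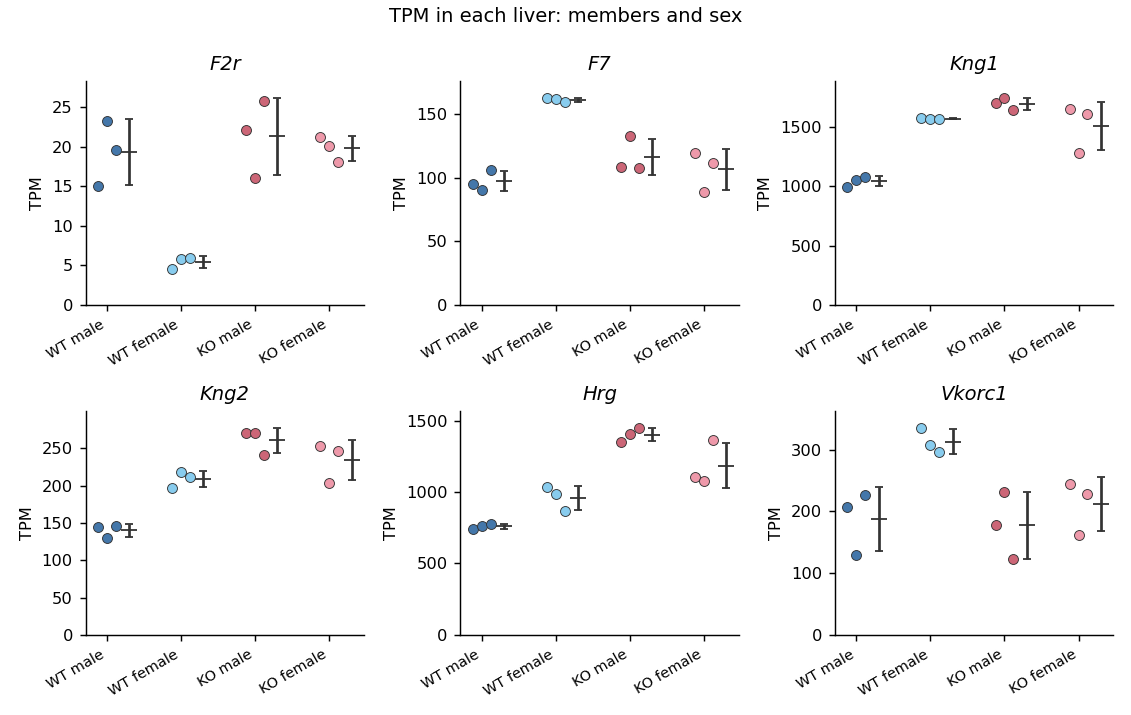
TPM as deposited in each liver for F2r, F7, Kng1, Kng2, Hrg and Vkorc1, by group; points are livers, and bars beside them show the mean ± SD (n = 3). WT females lie below all other livers for F2r and above them for F7 and Vkorc1, while KO males and KO females overlap for all 6 genes.

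Around these genes, 22 others of the pathway were listed, of which 19 were tested, 9 rose and 1 fell as deposited, and 6 rose and 5 fell after rescaling. Over all tested genes these shares were 50.1%, 4.82%, 20.9% and 18.7%. Their median difference was 0.30 as deposited and -0.16 after rescaling, beside 0.35 and -0.04 over all tested genes. *F2rl1*, for a protease-activated receptor and named only for this reason after its values were seen, averaged 0.132 TPM in WT and 1.17 TPM in KO and passed the filter only through KO; without it, 8 of 18 rose and 1 fell as deposited, and 5 rose and 5 fell after rescaling, with medians of 0.28 and -0.16. Genes that rose included *Anxa2*, whose product presents plasminogen at cell surfaces, and *Gas6*, for a vitamin K-dependent relative of protein S. *Anxa2* was 7.18 to 14.7 TPM in WT and 134 to 189.7 TPM in KO and rose by 3.78 (SE 0.147, adjusted p = 5.58e-10), or 3.34 (adjusted p = 3.75e-09) after rescaling. *Gas6* was 17.7 to 75.7 TPM in WT and 87.7 to 121 TPM in KO and rose by 1.58 (SE 0.238, adjusted p = 0.000104), or 1.12 (adjusted p = 0.00110) after rescaling. The single fall as deposited was that of *Adamts13*, for the protease that cuts von Willebrand factor, which was 0.869 to 4.11 TPM in WT and 0.352 to 2.05 TPM in KO, a difference of -0.55 (SE 0.186, adjusted p = 0.0236), or -0.78 (adjusted p = 0.00347) after rescaling. That call was lost as deposited without WT female replicate 3 (-0.41, adjusted p = 0.0536) or KO female replicate 2 (-0.44, adjusted p = 0.0515).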

How the data were processed

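RNA sequencing gave 1 library per mouse from 12 livers in 4 groups of 3, and groups were taken from the sample titles. The authors deposited TPM per gene, 1 column per library, each summing to 1000000, per the file headers. In those headers the library number of WT male replicate 2 lies apart from the run of the others. That library also had the lowest rescaling factor, 0.724. What the number stands for is not given, and its part in the results was not tested. The build GRCm38 is named in the submitters' processing notes. The aligner, the counter and the use of strand are not given in the sources used here. The authors' deposited table also holds their own KO against WT comparison, quoted as theirs; its FDR p is rounded to 2 decimals.

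From these values, log2(TPM + 1) was modelled in R 4.3.3 by limma 3.58.1, whose eBayes step used an intensity trend. The 12278 genes averaging 0.5 TPM or more were tested, two-sided, with Benjamini-Hochberg adjustment over all of them and a threshold of 0.05. Genotype was fitted with sex as a covariate, and the comparisons within and between sexes came from 1 model of the 4 group means. The script was tested on simulated data. The tests used TPM, as deposited and after rescaling. Whole reads were recovered within 0.02 of a whole number for 16572 of 16572 genes above 0 in at least 2 libraries, and no count test was run on them. Reads bound the precision of low genes for counting error only.

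All 36 genes are named, with up to 3 rises and 3 falls among 22 other pathway genes, of which 1 rise is not reported here. The genes, lists and rules were chosen with earlier results of these data known. Alternatives were rescaling, leaving out the 20 most abundant genes, a pseudocount of 0.1, no filter or a minimum mean of 2 TPM, no trend, a covariate for 2 animals of an earlier number series in the titles, and each library left out; leaving out libraries on both scales together was added after seeing the data. Positions come from GENCODE and promoters from RefSeq, both on GRCm38; isoforms were not analysed here.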

Additional observations from a re-analysis of the deposited data

Results flagged for a closer look

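The KO minus WT difference of *F2r*, the thrombin receptor gene, differed between the sexes by a test of the interaction. The male minus female difference was -1.58 on the log2(TPM + 1) scale (SE 0.280, adjusted p = 0.0160 in limma). KO was higher than WT in all 3 KO females against all 3 WT females, while the male groups overlapped.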

How the results depend on the processing

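Rescaling between libraries changed the most. It moved the genes called higher in KO from 18 to 9, those called lower from 1 to 8, those called in males from 19 to 11 and those called between the sexes in WT from 4 to 1. It reversed the sign of *F2* (-0.21), *F5* (-0.29), *F9* (-0.29), *F10* (-0.25), *F12* (-0.0821), *Kng1* (-0.15), *Ggcx* (-0.22), *Serpind1* (-0.40), *Plg* (-0.34) and *Serpinf2* (-0.0371), and among the genes called in males that of *F2* (-0.14), *F9* (-0.16), *F10* (-0.17) and *F12* (-0.0783). Rescaling also changed the sign of 10 genes not called in males and of 10 not called in females. Without the 20 most abundant genes, 2 genes were called lower, 2 had an interaction, and *Serpind1* was at -0.0125. With the covariate for the earlier animals, 2 genes were called between the sexes in WT. With each library left out in turn, the genes called lower numbered 1 to 2, on both scales together also 1 to 2, those with an interaction 0 to 1, and those called between the sexes in WT 2 to 6. The cause of these changes was not tested. Counts called in females (10 to 13), overall (16 to 21) and between the sexes in KO (0) stayed within 1.5 times their main values under every alternative run, as did the count of other pathway genes (8 to 13). No paired analysis was possible because the labels give no replicate numbers. *Serpina5* and *F13a1*, and in WT *Plat*, *Plaur*, *Procr* and *Plau*, rest on few reads, which limits their precision.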
